A study of Mus musculus with 48 samples.

Results

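The genes described here are the members of the large families of developmental transcription factors, together with the T-box gene Eomes. A gene was taken when it was protein-coding and its symbol began with Sox, Hoxa to Hoxd, Lhx, Nkx, Fox and a further letter, Tbx, Klf, Irx, Dlx, Pou, Otx or Zic, shared the stem of Six5, was 1 of the 3 Gli genes, or was Eomes. A few names, set aside in the choice, were not used here. In the reference gene names 199 protein-coding genes answer to this rule, and 53 of them are among the 6094 genes that the authors' deposited tables list for mouse cerebellum. One of the 53 answers to it by spelling alone: Tbxa2r encodes the thromboxane receptor and is no transcription factor. The 199 hold 3 more such names, none of them listed.

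These factors read short DNA sequences through a homeodomain, a forkhead, HMG or T-box domain, a POU domain or zinc fingers, and many set the identity of cells while the nervous system is built. In the cerebellum, hedgehog signalling acts through the Gli zinc fingers to drive the division of granule neuron precursors, Sox factors of the B1 group keep progenitors and glia, Zic factors mark the granule lineage and Lhx1 the Purkinje cells. Hox genes pattern the hindbrain and spinal cord behind the cerebellum, and several Krüppel-like factors (Klf) are switched on rapidly in stimulated cells.

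The series set cerebella of mice with a conditional knockout of Chd4 (cKO) against those of wild-type mice (WT). Chd4 encodes the motor subunit of NuRD, a complex that slides nucleosomes and removes acetyl groups from histones. Polyadenylated RNA was read in 4 cKO and 4 WT cerebella at postnatal days 27 to 28. At the same age it was read in 4 cerebella of rotarod mice, which had been trained to stay on a turning rod, and in 4 of rest mice kept in the home cage. Sync-TRAP, a pull-down of ribosome-bound RNA after electroporation, was done at postnatal day 12 and has its own tables. The labels give the rotarod and rest mice as WT. The Cre line that deletes Chd4, and so the cells that lost it, is not given in the sources used here, and neither is the number of animals behind a library, so p-values measure the spread between these libraries. The RNA is of the whole cerebellum, in which fewer cells of a type and less RNA per cell cannot be told apart.

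Depth was 13.7 to 15.6 M reads per cKO or WT library and 13.7 to 16.7 M reads per rotarod or rest library. Levels are given as log2 CPM, reads scaled to the size of the library, and are not per length, so they are compared between libraries and not between genes. Chd4 itself averaged 7.94 log2 CPM in cKO and 8.38 in WT, a difference of -0.44 ± 0.06 (limma, SE, adjusted p = 0.00199).

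The deposited tables list only genes that the authors' test called at an adjusted p under 0.05, so that being listed is itself the call. Below, a gene is "listed higher" or "listed lower" by that call. It "rose" or "fell" when limma, run on the 4 against 4 deposited log2 values and adjusted over all features the authors tested, passed it at 0.05 as well. Differences are on the log2 scale, cKO minus WT or rotarod minus rest, with limma's SE.

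More of the factors were listed lower than higher in cKO. The cKO table lists 48 of the 199 genes (24.1%), against 20.3% of all features tested, a set that also holds noncoding genes. How many of the 199 genes the authors tested is not known. Shares of the 199 and of all features thus have unlike bases, here and below. Of the 48, 31 were listed lower and 17 higher, a share of 64.6% lower and 35.4% higher, whereas all 5508 listed genes divide into 45.7% lower and 54.3% higher. As background, 9.29% of all features tested were listed lower and 11.0% higher. The median log2 fold change in the authors' deposited table was -0.28 over the 48 factors and 0.20 over all listed genes. Limma passed 26 of the 48, of which 16 fell and 10 rose. For 44 the unadjusted limma p was under 0.05. The authors' call had selected all 48 on these same libraries, so that count adds no support. The number that fell was 8 without cKO library 3 or 4 or WT library 4 and 10 without WT library 2. Over all features calls were lost in these fits too. Those that passed lower went from 1365 to 952, 970, 915 and 1001 without cKO library 3, cKO library 4, WT library 4 and WT library 2. The 26 are 13.1% of the 199 genes, with 8.04% lower and 5.03% higher, and over all features limma passed 13.2%, with 5.04% lower and 8.17% higher, so that the share that passed was at the background. Of the listed genes limma passed 54.2% of the factors and 65.0% of all 5508. With each library centred on the median of the listed genes, which moves every difference by 0.10 towards the lower side, the factors divided into 24 lower and 7 higher and no factor turned its direction. The same centring turned the division of all features past limma to 2180 lower and 1621 higher, against 1365 lower and 2214 higher without it, so the contrast with genes that mostly rose depends on the scaling. The libraries of the 2 genotypes did not overlap for 33 of the 48 (68.8%), against 78.0% of all listed genes.

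**Figure D1:**
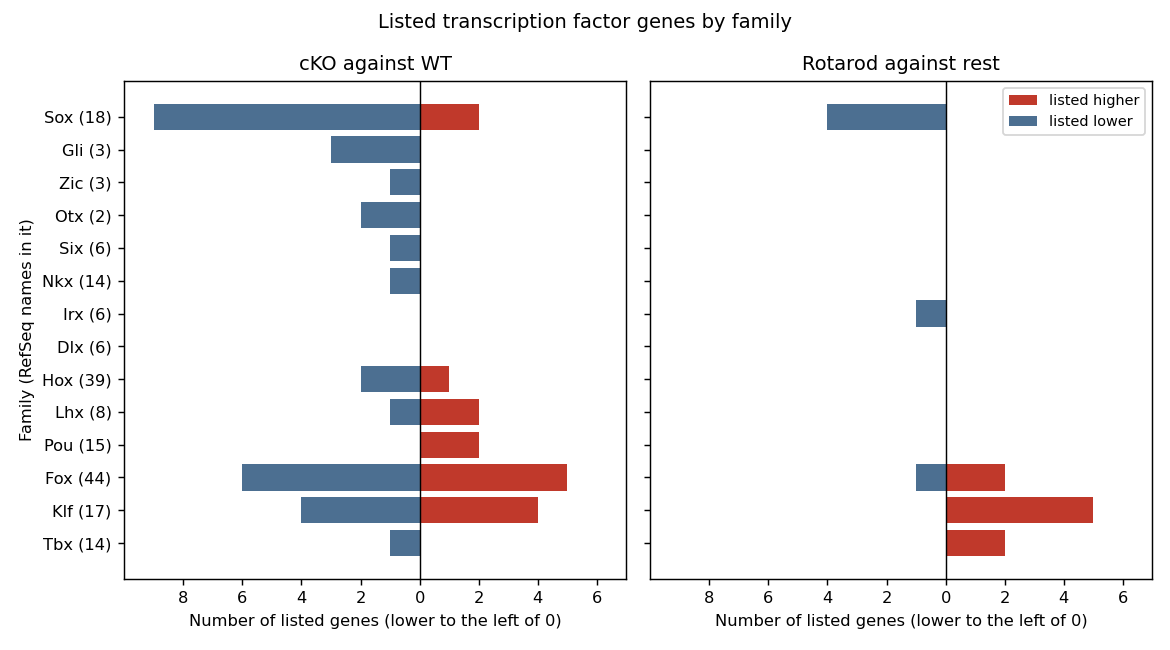
Number of listed factors in each family, for cKO against WT on the left and rotarod against rest on the right. Bars to the right of 0 count genes listed higher and bars to the left genes listed lower, with the number of RefSeq genes of the family in brackets; Tbxa2r is left out. In cKO 9 of 11 listed Sox genes and all listed Gli and Otx genes are on the lower side, and with rotarod training 5 of 5 listed Klf genes are on the higher side.

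The Sox family, which binds DNA through an HMG box, supplied the longest run of lower genes. Of its 18 genes 11 were listed, 9 lower and 2 higher, and 4 fell and 1 rose. All 3 genes of the B1 group, Sox1, Sox2 and Sox3, which hold neural cells in the progenitor state, fell. Sox1 had 4.11, 4.46, 4.14 and 4.12 log2 CPM in cKO libraries 1 to 4, against 4.56, 4.76, 4.66 and 4.64 in WT libraries 1 to 4. Every cKO library was below every WT library, and cKO library 2 stood above the other 3. The difference was -0.45 ± 0.09, or 1.36-fold lower (limma, adjusted p = 0.0129).

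Sox2 had 3.84, 3.87, 3.52 and 3.67 log2 CPM in cKO libraries, against 4.35, 4.38, 3.94 and 4.12 in WT libraries. The genotypes did not overlap, and libraries 3 and 4 were the lower pair in both. The difference was -0.47 ± 0.12 (limma, adjusted p = 0.0357). That call was lost without cKO library 1, 3 or 4 or WT library 1, 2 or 4, with an adjusted p of up to 0.0938. Sox3 was the least read of the group, with 47 reads over the cKO libraries and 99 over the WT libraries. Its values were 0.30, -0.08, -0.11 and -0.48 log2 CPM in cKO, against 0.90, 0.79, 0.75 and 0.98 in WT. It had the largest fall of any factor on the list that passed limma, by 0.94 ± 0.15 or 1.92-fold (adjusted p = 0.00411).

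The 3 C-group genes, which act as neurons differentiate, did not move one way. Sox4 had 3.49, 3.83, 3.71 and 3.44 log2 CPM in cKO, against 3.21, 3.35, 3.12 and 3.11 in WT, and rose by 0.42 ± 0.10 (limma, adjusted p = 0.0272). Sox11 fell by 0.33 ± 0.09 (adjusted p = 0.0374), with 326 reads in cKO and 423 in WT. Sox12 was listed higher at 0.29 ± 0.10 without passing limma (adjusted p = 0.123), and its genotypes overlapped. Sox4 lost its call without cKO library 2 or 3 or WT library 1, 3 or 4 (adjusted p up to 0.0799) or with each library centred (0.0785), and Sox11 without any 1 of the cKO libraries or WT library 2 or 3 (up to 0.0994) or with a trend in limma (0.0736). Sox12 passed without WT library 2 (adjusted p = 0.0374).

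The remaining Sox genes were all listed lower, and several are known from glia or vessels. Sox10, which oligodendrocytes require, had 5.37, 5.21, 5.02 and 5.05 log2 CPM in cKO, against 5.63, 5.51, 5.20 and 5.64 in WT. The genotypes overlapped through WT library 3, and the difference was -0.33 ± 0.12 (limma, adjusted p = 0.127; 0.0316 without WT library 3). Sox8, its relative in the E group, differed by -0.20 ± 0.07 (adjusted p = 0.149; 0.0363 without WT library 3), and Sox6 of the D group by -0.29 ± 0.09 (adjusted p = 0.0851; 0.0451 without cKO library 4). Sox21, of the B2 group that opposes the B1 genes, differed by -0.34 ± 0.13 (adjusted p = 0.165). Sox18, a factor of endothelial cells, differed by -0.62 ± 0.18 (adjusted p = 0.0605) and its genotypes did not overlap. None of these 5 passed limma with all libraries in its main setting. With each library centred, Sox6, Sox8 and Sox18 passed (adjusted p = 0.0191, 0.0268 and 0.0350). With a trend, Sox10 and Sox18 did (0.0336 and 0.0181).

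The Gli genes, the transcription factors at the end of the hedgehog pathway, were all listed lower, and 2 of 3 fell. Gli2, the main activator, had 3.09, 3.28, 3.17 and 2.94 log2 CPM in cKO, against 3.42, 3.66, 3.83 and 3.71 in WT. It fell by 0.53 ± 0.10 (limma, adjusted p = 0.0113), and it passed with any 1 library left out. Gli1, itself a target that reports pathway activity, had 4.02, 3.91, 3.67 and 3.69 log2 CPM in cKO, against 4.14, 4.38, 4.14 and 4.29 in WT. The difference was -0.41 ± 0.10 (adjusted p = 0.0266), and no longer passed without cKO library 3 or 4 or WT library 2 or 4 (adjusted p up to 0.0761). Gli3, mostly a repressor, differed by -0.32 ± 0.10 (adjusted p = 0.0696), with 572 reads in cKO and 730 in WT and no overlap of the genotypes.

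Of 14 other genes of the hedgehog pathway, from ligands to regulators of Smo, 4 were listed, all lower, and 2 fell. The co-receptor Boc fell by 0.82 ± 0.06 (limma, adjusted p = 0.000114), with 6.11 log2 CPM in cKO and 6.92 in WT. The signal transducer Smo fell by 0.31 ± 0.09 (adjusted p = 0.0498). The co-receptors Gas1 and Cdon differed by -0.19 ± 0.08 and -0.18 ± 0.09 without passing limma. The other 10, among them Shh, Ptch1 and Sufu, were not listed.

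Zic5, a zinc finger gene of the Zic family, had 5.37, 5.36, 5.40 and 5.31 log2 CPM in cKO, against 5.43, 5.64, 5.71 and 5.68 in WT. It fell by 0.25 ± 0.07 (limma, adjusted p = 0.0477), a call that held only without WT library 1 among the 8 libraries left out in turn (adjusted p up to 0.132). Both Otx genes were listed lower and neither passed, with an unadjusted limma p under 0.05 for both. Otx2 had 3.78, 3.78, 3.53 and 3.65 log2 CPM in cKO, against 4.36, 3.80, 3.98 and 4.30 in WT, a difference of -0.42 ± 0.13 (adjusted p = 0.0763; 0.0258 without WT library 2). Otx1 had 23 reads in cKO and 49 in WT, with overlapping libraries and a difference of -0.83 ± 0.29 (adjusted p = 0.117).

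Single genes of 2 other homeobox families fell. Six5, a homeobox gene related to fly sine oculis, had 1.64, 1.16, 1.52 and 1.37 log2 CPM in cKO, against 1.84, 2.01, 1.72 and 2.10 in WT. The genotypes did not overlap and the difference was -0.49 ± 0.12 (limma, adjusted p = 0.0323), which no longer passed without cKO library 2, 3 or 4 or WT library 1, 2 or 4 (adjusted p up to 0.0894). Nkx6-2, a factor of maturing oligodendrocytes, had 2.97, 2.97, 2.69 and 2.79 log2 CPM in cKO, against 3.29, 3.27, 3.07 and 3.32 in WT. It fell by 0.38 ± 0.09 (adjusted p = 0.0222), and lost the call without cKO library 3 or 4 or WT library 1, 2 or 4 (adjusted p up to 0.0664). Nkx6-2 lies within the span of Inpp5a, which was also listed lower (log2 fold change of -0.23 in the authors' deposited table). Of 6 partner genes of the family of Six5, 3 were listed. Eya2, a phosphatase co-activator, rose by 1.70 ± 0.13 (adjusted p = 0.000109) and Dach2 by 0.80 ± 0.17 (adjusted p = 0.0167), and Dach1 differed by -0.25 ± 0.07 (adjusted p = 0.0578).

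The forkhead (Fox) genes moved both ways. Of 44 genes 11 were listed, 5 higher and 6 lower, and 4 rose and 5 fell. Foxo6, a Foxo gene of neurons, had the largest limma difference of the family on the log2 scale with a prior count, on which genes at few reads such as Foxn1 and Foxb1 are held down. It had 3.35, 3.12, 2.39 and 3.01 log2 CPM in cKO, against 0.48, 1.01, 1.17 and 0.70 in WT, with 459 reads in cKO and 100 in WT. All cKO libraries stood far above all WT libraries, and cKO library 3 was the lowest of its group. The difference was 2.13 ± 0.22, or 4.36-fold higher (limma, adjusted p = 0.000507). The antisense gene Foxo6os was listed higher too, with a difference of 0.97 ± 0.37, and since the use of strand is not given in the sources used here, reads of the 2 genes cannot be told apart.

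The other 2 listed Foxo genes fell, so that the 3 listed members of the subgroup differed in direction. Foxo1, which carries insulin and stress signals to the nucleus, had 4.80, 5.0, 4.85 and 4.86 log2 CPM in cKO, against 5.45, 5.36, 5.59 and 5.40 in WT. It fell by 0.57 ± 0.07, or 1.49-fold (limma, adjusted p = 0.00104). Foxo3, the most abundant forkhead gene on the list, had 8.43, 8.42, 8.29 and 8.30 log2 CPM in cKO, against 8.55, 8.60, 8.61 and 8.55 in WT. Its fall was small, 0.22 ± 0.05 (adjusted p = 0.0323), and passed only with all libraries or without cKO library 1 or 2 (adjusted p up to 0.0953 otherwise).

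Foxp1, a transcriptional repressor, had 4.81, 4.63, 4.71 and 4.68 log2 CPM in cKO, against 5.20, 5.21, 5.30 and 5.41 in WT, and fell by 0.57 ± 0.07 (limma, adjusted p = 0.000924). Its relative Foxp4 went the other way and rose by 0.31 ± 0.08 (adjusted p = 0.0348), although that call was lost without cKO library 1, 2 or 4 or WT library 1, 3 or 4 (adjusted p up to 0.0903) or with each library centred (0.184). Foxc1, a gene of the meninges and of mural cells, fell by 0.33 ± 0.06 (adjusted p = 0.00696), with 393 reads in cKO and 506 in WT. Foxj2 fell by 0.32 ± 0.08 (adjusted p = 0.0264), lost without cKO library 3 or 4 or WT library 2, 3 or 4 (up to 0.0766). Foxn3 differed by -0.17 ± 0.07 (adjusted p = 0.256).

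3 further forkhead genes were at the edge of detection in WT. Foxn1, the factor of thymus and skin epithelium, had 5, 7, 5 and 6 reads in cKO libraries 1 to 4 and 0 reads in each WT library. It was singled out after its values were seen. With 3 reads over the WT group as the floor, Foxn1 was 7.83-fold higher in cKO, a ratio without the counting error of its cKO reads. It passed limma (adjusted p = 2.95e-06), with WT values that share 1 floor value and so have no spread. Foxa3, an endoderm and liver factor, had 18 reads in cKO and 3 in WT, a ratio of 6.13 with a 95% counting interval of 1.79 to 32.5, and rose (limma, adjusted p = 0.00948). Foxb1 had 8 reads in cKO, 5 of them in library 1, and 1 in WT, a ratio of 8.18 with an interval of 1.10 to 363, and did not pass (adjusted p = 0.401). Without cKO library 1 its difference was 0.39, against 0.72 with it. Counting intervals cover counting error only, and a ratio to a floor leaves out the counting error of the group with reads.

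Of the LIM-homeodomain (Lhx) genes, which specify neuron types, 3 of 8 were listed. Lhx6, a factor of forebrain interneurons, showed the largest limma difference of the listed factors, on the log2 scale with the authors' prior count, which holds down the differences of genes at few reads such as Foxn1. It had 1.35, 0.51, 1.15 and 0.96 log2 CPM in cKO, against -1.57, -1.50, -1.92 and -1.07 in WT, or 109 reads in cKO and 13 in WT. The genotypes were far apart, and the difference was 2.51 ± 0.22 (limma, adjusted p = 0.000193). Lhx3, a motor neuron and pituitary factor, had 0.61, 0.57, 0.36 and 0.58 log2 CPM in cKO, against -0.44, -0.64, -0.04 and -0.42 in WT. It rose by 0.92 ± 0.12 (adjusted p = 0.00189), and its reads added up to 76 in cKO and 38 in WT. Lhx1, which cerebellar Purkinje cells keep into adult life, had 5.95, 5.96, 5.77 and 5.87 log2 CPM in cKO, against 6.07, 6.08, 6.14 and 6.06 in WT. The libraries did not overlap, but the difference of -0.20 ± 0.06 did not pass limma (adjusted p = 0.0567). Of 10 partners of LIM proteins 3 were listed. Ldb2 fell by 0.97 ± 0.20 (adjusted p = 0.0147), Lmx1a differed by -0.80 ± 0.32 and Lmo4 by 0.24 ± 0.08.

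**Figure D2:**
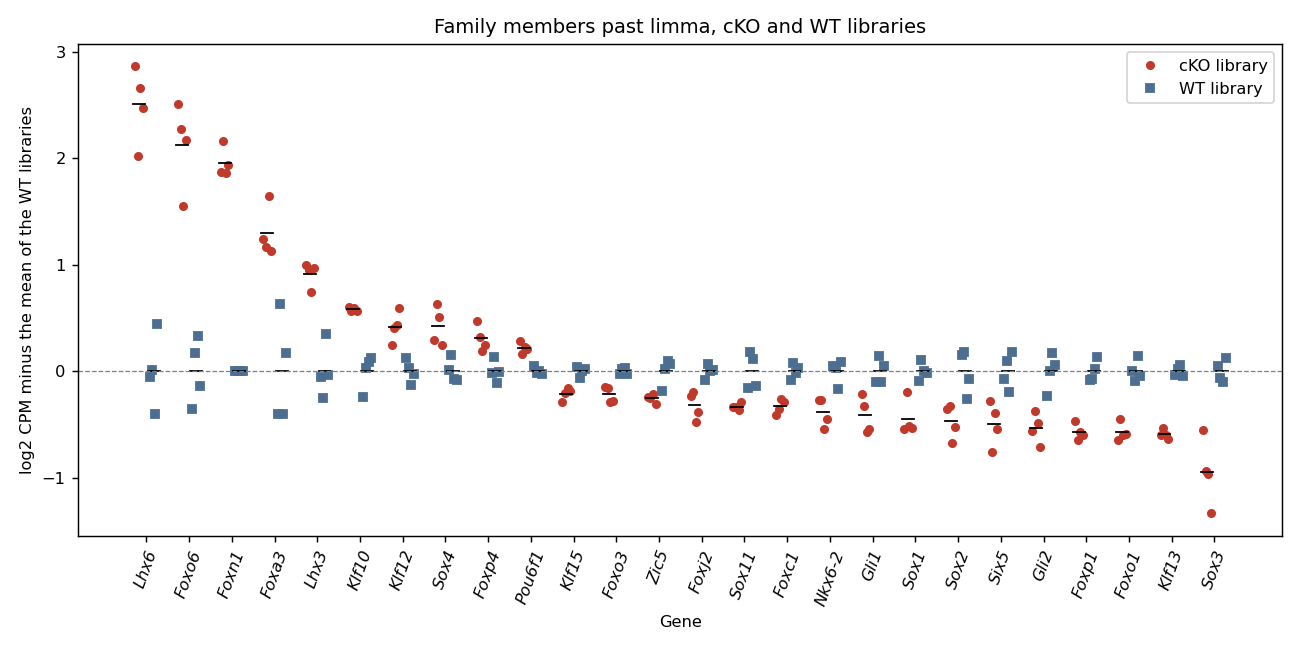
Log2 CPM of each cKO library (circles) and WT library (squares), less the mean of the 4 WT libraries, for the 26 factors past limma in order of their difference; black bars are group means. Lhx6, Foxo6 and Foxn1 are the highest, and Sox3 is the lowest with a difference of -0.94.

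Both listed POU-domain genes were higher. Pou6f1 had 6.17, 6.05, 6.12 and 6.10 log2 CPM in cKO, against 5.94, 5.87, 5.89 and 5.86 in WT, and rose by 0.22 ± 0.05 (limma, adjusted p = 0.0209). Its call was lost without cKO library 1, 3 or 4 or WT library 2, 3 or 4 (adjusted p up to 0.0648). With each library centred its difference was 0.12, and it did not pass (adjusted p = 0.249). Pou4f1, a factor of sensory neurons, had 43 reads in cKO and 21 in WT, with overlapping libraries and a difference of 0.87 ± 0.31 (adjusted p = 0.120).

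The Krüppel-like genes divided evenly. Of 17 genes 8 were listed, 4 higher and 4 lower, and 2 rose and 2 fell. Klf13, the most abundant, had 7.92, 7.98, 7.92 and 7.88 log2 CPM in cKO, against 8.48, 8.54, 8.58 and 8.47 in WT. The 2 groups were narrow and well apart, and Klf13 fell by 0.59 ± 0.05, or 1.51-fold (limma, adjusted p = 0.000152). Klf10, induced by TGF-beta, had 5.30, 5.26, 5.29 and 5.26 log2 CPM in cKO, against 4.45, 4.72, 4.78 and 4.82 in WT, and rose by 0.59 ± 0.08 (adjusted p = 0.00217). Klf12 had 4.35, 4.51, 4.54 and 4.70 log2 CPM in cKO, against 4.23, 4.14, 3.98 and 4.08 in WT, and rose by 0.42 ± 0.09 (adjusted p = 0.0160).

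Klf15, a gene under glucocorticoid control, had 4.84, 4.92, 4.97 and 4.94 log2 CPM in cKO, against 5.17, 5.06, 5.13 and 5.15 in WT. It fell by 0.21 ± 0.05 (limma, adjusted p = 0.0290), lost without cKO library 1, 2 or 4 or WT library 1, 3 or 4 (adjusted p up to 0.0853). Klf2, best known from vessel walls under blood flow, had 3.0, 3.10, 2.50 and 2.76 log2 CPM in cKO, against 3.39, 3.19, 2.78 and 3.33 in WT. The genotypes overlapped, and the difference of -0.33 ± 0.17 (adjusted p = 0.420) was -0.22 without cKO library 3. Klf8 differed by -0.65 ± 0.19 (adjusted p = 0.0684; 0.0351 without cKO library 1), Klf11 by 0.44 ± 0.13 (adjusted p = 0.0692; 0.0376 without cKO library 4) and Klf7, a neuronal gene, by 0.24 ± 0.08 (adjusted p = 0.0834).

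Of 39 Hox genes, a family that patterns the axis behind the cerebellum, 3 were listed, each at few reads. None passed limma, and Hoxb4 alone had an unadjusted limma p under 0.05. Hoxb4 had no reads in cKO, and 6, 0, 2 and 3 reads in WT libraries 1 to 4 (limma, adjusted p = 0.103; 0.00618 without WT library 2). With 3 reads over the cKO group as the floor it was 3.59-fold lower in cKO. That ratio leaves out the counting error of the WT reads. Hoxb5 had 3, 2, 0 and 0 reads in cKO, against 20, 0, 1 and 1 in WT, so that WT library 1 held nearly all its WT reads. Its difference was -0.55 with all libraries (adjusted p = 1.0), 0.21 without WT library 1, -0.35 without cKO library 3 or 4 and -0.93 without WT library 2. Hoxb8 had 6, 12, 0 and 0 reads in cKO, against 2, 0, 2 and 0 in WT, with a difference of 0.73 ± 0.66. It was 0.45 without cKO library 1, 0.21 without cKO library 2 and 1.14 without cKO library 3 or 4. Within libraries 3 and 4 it was -0.48. Of 9 Hox cofactors 3 were listed: Meis3 rose by 0.90 ± 0.06 (adjusted p = 6.59e-05) and Pbx4 by 0.64 ± 0.14 (adjusted p = 0.0181), and Pbx3 differed by -0.25 ± 0.10.

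In the T-box family only Eomes was listed in cKO. Eomes, which marks the unipolar brush cells of the cerebellum, had 6.07, 6.16, 5.84 and 5.73 log2 CPM in cKO, against 6.31, 6.20, 6.21 and 6.15 in WT. cKO library 2 reached the WT range, and the difference was -0.27 ± 0.10 (limma, adjusted p = 0.147). The receptor gene Tbxa2r differed by 0.71 ± 0.25 (adjusted p = 0.113), with 57 reads in cKO and 32 in WT. No Irx or Dlx gene was listed in cKO.

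Many of the factors listed higher were barely detected in WT. Of the 17 listed higher, 8 (47.1%) averaged under 0 log2 CPM in WT, against 3 of the 31 listed lower (9.68%). Over all listed genes those shares were 19.6% and 3.34%. A gene with few WT reads can be called higher but hardly lower, so the call itself favours this contrast. The median WT level was 0.84 log2 CPM for the 17 and 4.20 for the 31, against 4.0 and 5.21 over all listed genes. With 1 CPM added before the log, the differences of Lhx6, Foxn1, Foxa3, Lhx3 and Sox3 became 1.15, 0.43, 0.29, 0.47 and -0.53, and all 5 passed limma. With the deposited fold changes, 8 of the 17 (47.1%) and 4 of the 31 (12.9%) changed at least 2-fold. Over all listed genes those shares were 29.0% of the higher and 6.75% of the lower genes.

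**Figure D3:**
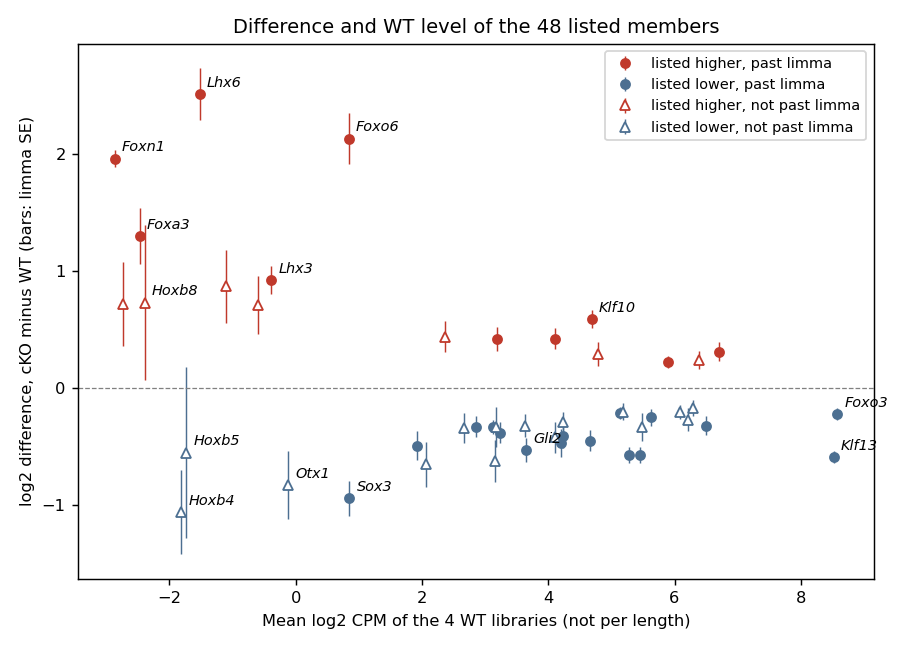
The log2 difference, cKO minus WT with limma's SE, of each of the 48 listed factors against its mean log2 CPM in the 4 WT libraries. Filled circles passed limma and open triangles did not; the differences above 1 all sit at WT levels under 1 log2 CPM, while Klf13 and Foxo3 at the right edge differ by -0.59 and -0.22.

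Listed markers of cells other than granule neurons and microglia were lower too, and their part in these differences was not tested. The sums below cover listed markers only, and markers that were not listed are left out. Listed markers had been called on these same libraries, so a gap between sums adds no support to the calls. Where a list holds a factor, its sum includes that factor. Of 10 Purkinje markers 8 were listed, all lower, and their summed level was 7099 to 7649 CPM in cKO libraries and 8347 to 8867 CPM in WT libraries; Lhx1 lies with these. Of 8 astrocyte and Bergmann glia markers 3 were listed, all lower (3054 to 3334 CPM in cKO, 3572 to 3730 in WT), beside Sox1, Sox2 and the Gli genes. Of 10 oligodendrocyte markers, Sox10 among them, 6 were listed, all lower, beside Sox8 and Nkx6-2. Their sums overlapped (3952 to 4201 CPM in cKO, 4021 to 5431 in WT). Of 10 endothelial and mural markers 6 were listed, all lower (105 to 125 CPM in cKO, 138 to 167 in WT), beside Sox18 and Klf2. Of 10 meningeal markers, Foxc1 among them, 7 were listed, all lower (269 to 281 CPM in cKO, 311 to 409 in WT). Of these 7 limma passed Foxc1 alone. It passed 4 of the listed Purkinje markers and 2 of the listed astrocyte and Bergmann glia markers. Of the listed oligodendrocyte markers it passed 2, and of the listed endothelial and mural markers 5.

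Of 7 interneuron markers 6 were listed, all lower, and 5 fell (421 to 492 CPM in cKO, 533 to 605 in WT). Of 6 unipolar brush cell markers, Eomes among them, 4 were listed, all lower, and none passed limma (561 to 591 CPM in cKO, 648 to 685 in WT). Of 8 choroid plexus markers, Otx2 among them, 3 were listed lower, none passed limma, and their sums overlapped (14 to 21.9 CPM in cKO, 17.9 to 36.3 in WT). Of 8 microglia markers only Ctss was listed, at 0.41 ± 0.14. Of 10 granule neuron markers 3 were listed higher and 2 lower, and their sum overlapped (3108 to 3261 CPM in cKO, 3123 to 3322 in WT). No listed marker was at 0 reads.

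Other regulators of development were called on both sides. Of 28 Polycomb genes, whose proteins keep developmental genes silent, 13 were listed, 6 higher and 7 lower, and 4 rose and 3 fell. Phf19 rose by 0.97 ± 0.11 (limma, adjusted p = 0.000904), Phf1 by 0.69 ± 0.06 (adjusted p = 0.000139), and Cbx6 fell by 0.36 ± 0.06 (adjusted p = 0.00534). Of 23 basic helix-loop-helix and Id genes 9 were listed, of which 2 rose and 3 fell, with Nhlh1 up by 8.10 ± 0.24 (adjusted p = 1.15e-06; 6.25 log2 CPM in cKO, -1.85 in WT), Hes5 up by 1.27 ± 0.34 (adjusted p = 0.0428) and Hey1 down by 0.33 ± 0.06 (adjusted p = 0.00940). Of 42 homeobox genes of other families 8 were listed, of which 3 rose, among them Emx1 by 0.87 ± 0.15 (adjusted p = 0.00558), and En2, which shapes the cerebellum, fell by 0.46 ± 0.06 (adjusted p = 0.00113).

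Rotarod training gave a smaller set, led by Krüppel-like and T-box genes. The rotarod table lists 15 of the 199 genes (7.54%), against 3.38% of all features tested. Of the 15, 9 were listed higher and 6 lower, where 2.06% of all features were listed higher and 1.31% lower. Limma passed 4 of them, Klf2, Eomes, Tbx6 and Klf4, all higher, or 2.01% of the 199 genes, against 0.621% of all features, 0.420% higher and 0.201% lower. With each library centred, the same 4 factors passed, while over all features 80 passed higher and 133 lower, against 113 and 54 without centring. None of the lower factors passed limma. All 15 had an unadjusted limma p under 0.05. The authors' call on these same libraries had already selected them, so that count adds no support. With a term for columns 1 to 4 against 5 to 8, added after seeing the data, Irx5 and Sox18 passed lower (adjusted p = 0.0289 and 0.0441), and with a trend Sox1 did (0.0498). Over all features 53 passed lower with the term and 91 with the trend. Libraries are called by their column numbers, 3, 4, 7 and 8 for rotarod and 1, 2, 5 and 6 for rest. The number that rose was 1 without rotarod library 4 or 8, and 2 without rotarod library 3 or any 1 of the rest libraries. Over all features 44 to 67 passed higher in fits without 1 library, against 113 with all libraries. The 2 groups did not overlap for 12 of the 15 (80.0%), against 84.9% of all listed genes.

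The promoters of the 4 genes that rose are shown because these genes rose together with training. Each runs from 250 bases before to 50 bases after the start in RefSeq (GRCm38.p6), on the gene's own strand, and capitals mark TGACG, the core of the cyclic AMP response element, read on either strand (CGTCA on the other). Klf2 lies at chr8:72318812-72319111 on the plus strand, Klf4 at chr4:55532426-55532725 on the minus strand, Eomes at chr9:118477939-118478238 on the plus strand and Tbx6 at chr7:126781233-126781532 on the plus strand.
Klf2: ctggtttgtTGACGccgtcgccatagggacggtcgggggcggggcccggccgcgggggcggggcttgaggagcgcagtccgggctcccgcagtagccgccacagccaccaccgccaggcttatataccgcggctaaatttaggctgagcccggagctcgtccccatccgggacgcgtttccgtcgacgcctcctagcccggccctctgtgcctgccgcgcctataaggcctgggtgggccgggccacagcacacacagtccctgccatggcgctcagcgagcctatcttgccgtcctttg
Klf4: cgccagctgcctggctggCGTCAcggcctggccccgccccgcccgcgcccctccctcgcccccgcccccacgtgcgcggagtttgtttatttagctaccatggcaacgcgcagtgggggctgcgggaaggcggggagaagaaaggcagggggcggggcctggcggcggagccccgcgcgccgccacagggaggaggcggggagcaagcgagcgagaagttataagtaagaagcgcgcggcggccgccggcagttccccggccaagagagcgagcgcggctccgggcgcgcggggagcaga
Eomes: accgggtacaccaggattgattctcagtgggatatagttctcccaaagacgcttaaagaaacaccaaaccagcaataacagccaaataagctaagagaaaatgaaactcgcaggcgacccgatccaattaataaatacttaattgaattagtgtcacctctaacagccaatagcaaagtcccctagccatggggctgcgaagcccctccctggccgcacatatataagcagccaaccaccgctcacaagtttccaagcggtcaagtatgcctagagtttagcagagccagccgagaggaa
Tbx6: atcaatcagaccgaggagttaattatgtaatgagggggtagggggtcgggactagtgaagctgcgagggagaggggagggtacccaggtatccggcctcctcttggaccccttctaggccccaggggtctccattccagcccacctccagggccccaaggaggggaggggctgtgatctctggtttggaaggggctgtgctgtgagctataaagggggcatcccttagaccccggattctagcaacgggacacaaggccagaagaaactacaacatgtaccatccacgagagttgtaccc
The core stands once in the Klf2 window, its first printed base at -241 from the start, and once in the Klf4 window, at -232 and on the other strand. It is not among the letters of the Eomes and Tbx6 windows. A gene with several windows was counted when any held the core. It was in 5 of the 9 factors listed higher with rotarod training (55.6%), 2 of 3 listed lower with a window (66.7%), 6 of 14 listed higher in cKO (42.9%) and 12 of 25 listed lower in cKO, against 20.8% of the 32851 windows in the table. The 20.8% is a share of single windows. The 39 factors of the cKO list with a window had 54 windows, so their shares have another base and were raised by counting any window. The 12 factors of the rotarod list had 12 windows. The windows were not matched for their content of G and C. Whether the core was more common in the factors than in other genes was thus not tested. Windows were at hand for 42 of the 53 factors and for 12 of the 15.

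Klf2 had 4.56, 4.32, 4.24 and 4.56 log2 CPM in the rotarod libraries, against 2.94, 2.79, 2.59 and 2.81 in the rest libraries. The lowest rotarod library was far above the highest rest library, with 1381 reads after rotarod training and 401 at rest. The difference was 1.64 ± 0.11, or 3.11-fold higher (limma, adjusted p = 0.00117), and it passed with any 1 library left out (adjusted p up to 0.00618). Klf4, a factor of stem cells and epithelia that neurons also induce, had 3.69, 3.60, 3.24 and 3.40 log2 CPM with rotarod training, against 2.84, 2.56, 2.50 and 2.73 at rest. It rose by 0.82 ± 0.12, or 1.77-fold (adjusted p = 0.0288). That call was kept only without rotarod library 7 among the 8 libraries left out in turn (adjusted p up to 0.104).

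The other 3 Klf genes were listed higher without passing limma. Klf6 had 5.23, 5.35, 5.03 and 5.25 log2 CPM with rotarod training, against 4.64, 5.0, 4.77 and 4.46 at rest, a difference of 0.50 ± 0.12 (adjusted p = 0.170). Klf13 had 8.45, 8.39, 8.44 and 8.50 log2 CPM with rotarod training, against 8.22, 8.18, 7.82 and 7.88 at rest. The rest libraries fell into a higher pair (1 and 2) and a lower pair (5 and 6), and the difference was 0.42 ± 0.10 (limma, adjusted p = 0.162). Klf15 had 4.42, 4.58, 4.68 and 4.94 log2 CPM with rotarod training, against 3.74, 3.86, 4.30 and 4.41 at rest, a difference of 0.58 ± 0.17 (adjusted p = 0.334). In all 3 the lowest rotarod library was above the highest rest library. Klf13 overlaps the noncoding gene Gm27252, which was also listed higher (log2 fold change of 1.07 in the authors' deposited table).

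Eomes had 6.60, 6.43, 5.80 and 6.08 log2 CPM with rotarod training, against 5.11, 5.05, 4.74 and 4.76 at rest. Both groups were higher in their first pair of columns, and all rotarod libraries were above all rest libraries. It rose by 1.31 ± 0.18, or 2.49-fold (limma, adjusted p = 0.0237), and lost the call without rotarod library 3, 4 or 8 or any 1 of the rest libraries (adjusted p up to 0.0848). No other of 6 unipolar brush cell markers was listed. Tbx6, a factor of the embryonic mesoderm, had 3.22, 3.27, 3.23 and 3.44 log2 CPM with rotarod training, against 1.75, 2.19, 2.46 and 2.0 at rest. It rose by 1.19 ± 0.14, or 2.28-fold (adjusted p = 0.0148), with 624 reads after rotarod training and 246 at rest, and did not pass without rotarod library 4, 7 or 8 (adjusted p up to 0.0554).

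Foxo1 and Foxo3 were listed higher. Foxo1 had 5.18, 5.35, 5.29 and 5.51 log2 CPM with rotarod training, against 5.10, 4.86, 5.10 and 4.94 at rest, and Foxo3 had 8.33, 8.39, 8.53 and 8.45, against 8.34, 8.01, 8.18 and 7.98 at rest. The differences were 0.33 ± 0.09 and 0.30 ± 0.09 (limma, adjusted p = 0.251 and 0.413), and the groups overlapped for Foxo3 through rest library 1.

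**Figure D4:**
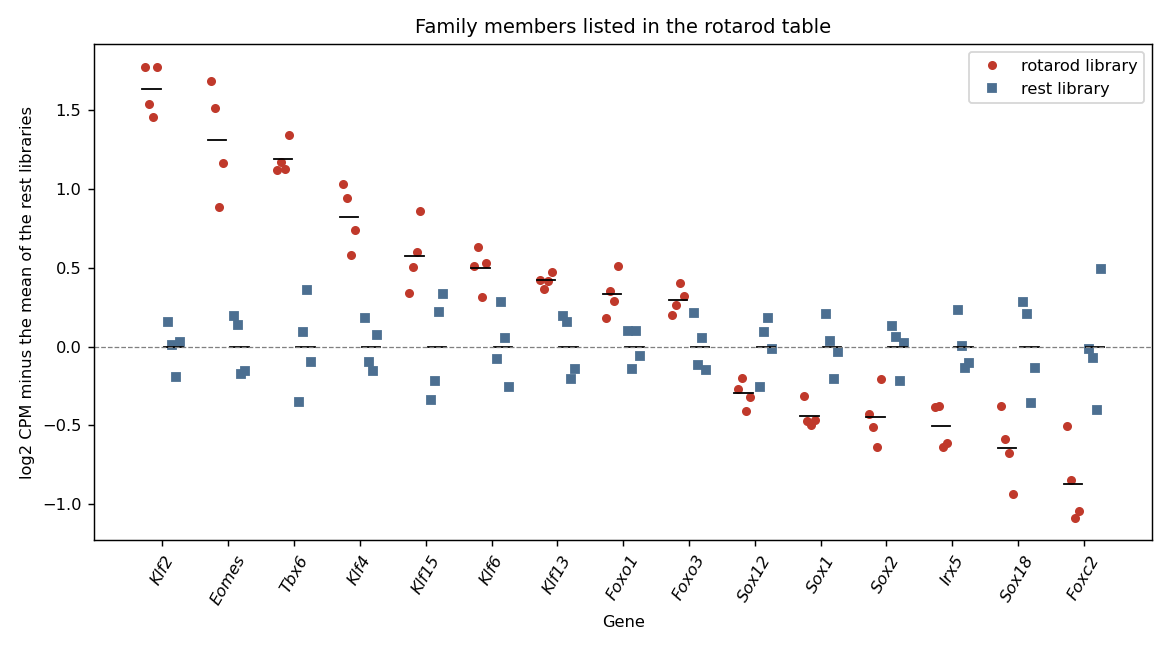
Log2 CPM of each rotarod library (circles) and rest library (squares), less the mean of the 4 rest libraries, for the 15 listed factors in order of their difference; black bars are group means. Klf2, Eomes, Tbx6 and Klf4 stand highest, and Foxc2 is the lowest with a difference of -0.87.

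The factors listed lower with rotarod training were 4 Sox genes, Irx5 and Foxc2. Sox1 had 4.66, 4.50, 4.48 and 4.51 log2 CPM with rotarod training, against 5.18, 5.01, 4.77 and 4.94 at rest, a difference of -0.44 ± 0.10 (limma, adjusted p = 0.112). Sox2 had 4.43, 4.35, 4.22 and 4.65, against 4.99, 4.92, 4.64 and 4.88 at rest, and rotarod library 8 reached the rest range (difference -0.44 ± 0.11, adjusted p = 0.181). Sox18 had 2.52, 2.31, 2.22 and 1.96, against 3.18, 3.10, 2.54 and 2.76 at rest (difference -0.64 ± 0.17, adjusted p = 0.209). Sox1 and Sox18 had no overlap, though for Sox18 rotarod library 3 came close to rest library 5. Sox12 had 5.81, 5.88, 5.67 and 5.76, against 5.82, 6.17, 6.26 and 6.06 at rest, with overlapping groups (difference -0.30 ± 0.10, adjusted p = 0.573).

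Irx5, an Iroquois homeobox gene, had 2.51, 2.52, 2.26 and 2.28 log2 CPM with rotarod training, against 3.13, 2.90, 2.76 and 2.79 at rest. Foxc2, a factor of vessels and meninges, had 2.09, 1.75, 1.51 and 1.55, against 2.58, 2.52, 2.19 and 3.09 at rest. Neither overlapped between groups, and the differences were -0.50 ± 0.11 (limma, adjusted p = 0.102) and -0.87 ± 0.20 (adjusted p = 0.127). Of 10 meningeal markers 4 were listed, all lower, and none passed limma. Their summed level was 77.8 to 100 CPM with rotarod training and 110 to 141 CPM at rest. Of 10 endothelial and mural markers Flt1 alone was listed, at 0.38 ± 0.14, without passing limma. Of 10 granule neuron markers Cbln1 alone was listed, at -0.42 ± 0.10 (adjusted p = 0.130), with 1064 to 1306 CPM with rotarod training and 1440 to 1769 CPM at rest and no overlap. The part of meningeal and endothelial cells in the values of Foxc2 and Sox18 was not tested. Here too the summed levels cover only listed markers, which had been called on the same libraries. Of the other lists, the basic helix-loop-helix and Id genes had 3 of 23 listed, all lower, of which Id3 fell by 0.49 ± 0.08 (adjusted p = 0.0378), and the other homeobox genes had 5 of 42, of which Msx2 fell by 0.87 ± 0.12 (adjusted p = 0.0237). Of 28 Polycomb genes 3 were listed, all higher: Cbx8 by 0.56 ± 0.11, Pcgf6 by 0.36 ± 0.06 and Phc2 by 0.23 ± 0.07 (adjusted p = 0.0728, 0.0510 and 0.356).

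The 2 tables share 10 of the factors, and no library. Of these 10, 6 were listed higher with rotarod training and lower in cKO: Klf2, Klf13, Klf15, Foxo1, Foxo3 and Eomes. In cKO, Klf13, Klf15, Foxo1 and Foxo3 fell and Klf2 and Eomes did not pass limma, and with rotarod training only Klf2 and Eomes of the 6 passed. Sox1, Sox2 and Sox18 were listed lower in both, Sox12 was listed lower with rotarod training and higher in cKO, and no factor was listed higher in both. Of the 322 genes of any kind that both tables list, 132 (41.0%) were higher with rotarod training and lower in cKO, 50 (15.5%) lower in both, 65 (20.2%) lower with rotarod training and higher in cKO and 75 (23.3%) higher in both.

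**Figure D5:**
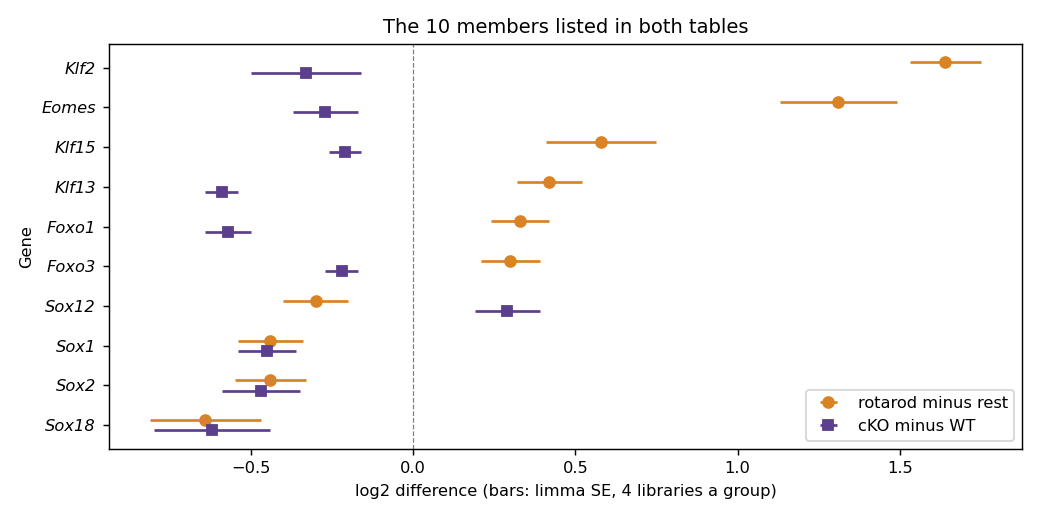
The log2 differences of the 10 factors listed in both tables, rotarod minus rest (circles) and cKO minus WT (squares), with limma's SE from 4 libraries a group. Klf2 differs by 1.64 with rotarod training and by -0.33 in cKO, and Sox1 and Sox2 lie below 0 in both.

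The Sync-TRAP tables list no factor of these families among 38 genes for cKO against WT pull-downs and none among 51 genes for pull-down against input of WT, by the authors' calls.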

How the data were processed

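For each library the deposited gene tables hold log2 CPM values, to which the authors added a prior count. They also hold a log2 fold change between groups, a mean log2 CPM, a likelihood ratio score and a p-value with its adjusted form, per the file headers. The submitters' processing notes name Bowtie, edgeR and the build mm9. Their versions, the counting tool and any use of strand are not stated in the sources at hand. Each deposited table was checked to hold only genes with an adjusted p-value under 0.05. The number of features the authors tested was worked out from p-value, rank and adjusted p-value as about 27100 for the cKO table and 26900 for the rotarod table. Repeated lines (49 and 5) were dropped, and 5482 of 5508 and 902 of 908 identifiers were found among the reference names. All columns of values were mapped to a group (0 left over).

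Differences and SE were computed with limma 3.58.1 in R 4.3.3 from those log2 values, and p-values were adjusted by Benjamini-Hochberg for the number of features tested. Only called genes informed its variance prior, and a gene outside the tables counts as not called. The design foresaw counts of all genes, so count models were not run, nor any test of a list. The script was tested on simulated data. Reads were recovered from the log2 values, and below 20 reads all values (100%) were within 0.1 read of a whole number. Ratios from 3 or fewer reads have an exact 95% interval, and 3 reads over a group are the floor.

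Members and gene lists were chosen with earlier results of these data known. Values by library are given for the 14 largest differences among factors past limma at a mean of at least 0 log2 CPM in the cKO table, the most abundant factor of each family, all Hox genes and all factors of the rotarod table, with Foxn1 added. The other factors are given by differences or read sums. Libraries of the same number in cKO and WT were not taken as paired. Their deviations from the group means correlated at 0.0983, 0.16, 0.131 and 0.0846, all positive but not all over 0.1. Across numbers the values ran from -0.163 (cKO library 1 with WT library 3) to 0.184 (cKO library 4 with WT library 3). The check does not settle whether libraries were paired or shared a batch. Column numbers of the rotarod table match no sample title, so its libraries are known by group alone. Promoters come from RefSeq (GRCm38.p6). Alternatives were other thresholds and adjustments, centring, a trend, a pseudocount of 1 CPM, subsets of the libraries, a block for the library number and fits without single libraries. The chromatin samples were not analysed here.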

Additional observations from a re-analysis of the deposited data

Results flagged for a closer look

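In 7 of 126 groups of 4 libraries, 1 library stood apart from the other 3, and chance alone sets apart about 1 group in 20. Hoxb5 had 0.55 log2 CPM in WT library 1, against -2.87 to -2.29 in the other WT libraries. Foxb1 had -2.29 log2 CPM in WT library 4, a single read, with no read in the others. Sox1 had 4.46 log2 CPM in cKO library 2, against 4.11 to 4.14 in the other cKO libraries, and 4.66 log2 CPM in rotarod library 3, against 4.48 to 4.51. Foxn3 had 6.30 log2 CPM in cKO library 1, against 6.05 to 6.09 in the others. Lhx3 had 0.36 log2 CPM in cKO library 3, against 0.57 to 0.61, and Sox6 had 4.05 in WT library 3, against 4.27 to 4.30.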

How the results depend on the processing

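With the authors' threshold at an adjusted p of 0.01, 11 factors were listed higher and 21 lower in cKO, and 3 lower with rotarod training. With a log2 fold change of at least 1, 8 were listed higher and 4 lower in cKO, of which limma passed 5 and 1, and with rotarod training 3 were listed higher and 0 lower. Over all listed genes 868 were higher and 170 lower at that fold change in cKO, and 112 and 47 with rotarod training. At a mean of at least 0 log2 CPM, 11 were listed higher in cKO. For this limit and for the adjusted p of 0.01, matching counts over all listed genes were not made. Limma adjusted over the genes of the table alone passed 28 lower in cKO, and 9 higher and 6 lower with rotarod training. That adjustment passed most listed genes of any kind, 2329 lower in cKO, and 550 higher and 346 lower with rotarod training. With a trend, 1 passed lower with rotarod training (Sox1), and with each library centred, 24 passed lower in cKO. Those that centring added were Gli3, Klf8, Lhx1, Otx2, Eomes, Sox6, Sox8 and Sox18.

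With each library left out in turn, limma passed 7 to 10 higher and 8 to 13 lower factors in cKO, and 1 to 3 higher and 0 lower with rotarod training. Over all features these fits passed 1714 to 1965 higher and 915 to 1085 lower in cKO. With rotarod training they passed 44 to 67 higher and 10 to 19 lower. Of the 26 factors past limma in cKO, 14 passed with any 1 library left out, and of the 4 with rotarod training 1 did, Klf2. The matching count over all features was not made. Within libraries 1 and 2, 3 passed higher and 0 lower in cKO, and within libraries 3 and 4, 3 higher and 5 lower. Over all features these were 454 higher and 95 lower, and 842 higher and 247 lower. Within rotarod columns 1 to 4 and within columns 5 to 8, none (0) passed higher, and with a term for these column groups 2 passed lower, Irx5 and Sox18. Over all features too, none (0) passed in either direction within either column group. With the term 107 passed higher and 53 lower over all features. The column groups were added after seeing the data. The subsets hold fewer libraries. With the library number as a replicate block, 9 factors passed higher and 9 lower in cKO, and over all features 1811 higher and 1037 lower. The check made does not settle whether the numbers pair the libraries.

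Hoxb5 differed by -0.93 to 0.21 with single libraries left out, and turned without WT replicate 1 (0.21). The direction also turned for Hoxb8 within libraries 3 and 4 (-0.48), and the cause was not tested. No other factor turned under any alternative run. Depth limits the factors with under 50 reads over a group, above all the Hox genes, Foxn1, Foxa3 and Foxb1.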

Other observations

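Close relatives moved apart in cKO in several families. Foxo6 rose and Foxo1 and Foxo3 fell, Foxp4 rose and Foxp1 fell, Sox4 rose and Sox11 fell, and Klf10 rose and Klf13 fell. With each library centred, Foxp4 and Sox4 no longer passed limma (adjusted p = 0.184 and 0.0785), and with a trend Sox11 did not (0.0736), so the Foxp and Sox pairs depend on these settings. Differences between relatives were not tested against each other.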
